A study of Schizosaccharomyces pombe with 6 samples.

Results

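Transcripts of 9 genes for RNA polymerase II (Pol2), the kinases and the phosphatase of its carboxy-terminal domain (CTD), and the elongation factor Spt5 were followed in wild-type and *siw14*∆ cells of the fission yeast *Schizosaccharomyces pombe*. The genes were taken by systematic ID from the 6988 loci of the count matrix, and all 9 passed the filter on low counts, as did 5774 loci in all. They are *rpb1* (SPBC28F2.12) and *rpb2* (SPAC23G3.01) of the polymerase, *spt5* (SPAC23C4.19), *cdk9* (SPBC32H8.10) and its cyclin *pch1* (SPBC32F12.06), *mcs6* (SPBC19F8.07), *lsk1* (SPAC2F3.15), *csk1* (SPAC1D4.06c) and *fcp1* (SPAC19B12.05c). Poly(A)+ RNA came from 3 biological replicates of each strain, both of mating type h-, in vegetative log-phase growth at 30 °C in YES medium. The controls carried no allele named beyond the mating type, and the mutant carried *siw14*∆::HygMX, a replacement of the gene for the inositol pyrophosphatase Siw14 by a hygromycin marker. Each genotype is 1 strain, so the p-values measure the spread between replicates of that strain, and in bulk RNA a lower level in each cell and fewer expressing cells cannot be told apart. Values of single libraries are listed below in the order of replicates 1, 2 and 3. The deleted *siw14* gene itself was at 2014, 2414 and 2377 counts in wild type against 13, 12 and 14 in the mutant, as the labels say.

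Library totals over genes ran from 12875286 to 14583056 counts. The 9 genes had from 149 to 7320 counts in a library. A normalized count here is a count scaled by the library total and by the trimmed mean of M values (TMM) to 1 common library size. Fold changes compare the 3 *siw14*∆ with the 3 wild-type libraries by the quasi-likelihood test of edgeR. Its p-values were adjusted over the 5774 loci (Benjamini-Hochberg). A gene was called when its adjusted p was at most 0.05. The TMM factors were 0.864, 0.976 and 0.984 in wild type and 1.11, 1.03 and 1.05 in *siw14*∆ cells. The scaling thus differed between the genotypes without overlap, and wild-type replicate 1 had the lowest factor. Over all loci, edgeR called 16.7% higher and 4.99% lower in *siw14*∆ cells.

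Pol2 transcribes all protein-coding genes, and its largest subunit Rpb1 ends in the CTD, a tail of heptad repeats whose serines and threonine are phosphorylated and dephosphorylated during each round of transcription. Mcs6, the kinase of the initiation factor TFIIH, phosphorylates Ser5 and Ser7 of the repeat near the start of a gene. Lsk1 phosphorylates Ser2 during elongation, and Cdk9 with its cyclin Pch1 phosphorylates the CTD and the carboxy-terminal repeats of Spt5. Csk1 activates Mcs6 and Cdk9 by phosphorylation, and Fcp1 removes phosphate from the CTD. In fission yeast the state of the CTD influences where the noncoding transcripts upstream of the phosphate-responsive genes end. Inositol pyrophosphates act on the same step.

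The repeats are the substrates that link these genes, so a sample of their coding sequence is shown. In the RefSeq coding sequence of *rpb1* (build ASM294v3), 24 exact copies of the consensus heptad were found between codons 1578 and 1752 of 1752, and 20 of them followed each other without a gap. These 24 copies used 21 different coding sequences, with the same protein repeat encoded by different DNA. The coding sequence of *spt5* held 10 copies of a repeat that starts with threonine, proline, alanine and tryptophan. They lie between codons 827 and 925 of 990, and no pair of copies had the same DNA. Copies were found by these first residues alone. The later residues differ between some copies, so unlike the heptads they do not all encode the same protein repeat. *rpb1* lies on chromosome II and *spt5* on chromosome I, both on the plus strand. The examples are written 5′ to 3′ on the coding strand. Capitals mark the codons of Ser2 and Ser5 in the heptad and of the first threonine in the *spt5* repeat, the residue that Cdk9 phosphorylates in fission yeast.
rpb1 copy 9, identical to copies 12 and 18: tatTCAccgactAGTccttct
rpb1 copy 8, identical to copy 11: tatTCTcctactAGTccctct
rpb1 copy 24: tatTCCcctactAGCccatct
spt5 copy 2: ACAcctgcgtggaattctggttcaaag
spt5 copy 4: ACCccagcgtggaactctgggaataaa

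Levels of different genes were compared per length, as RPKM with ASM294v3 exon lengths and TMM-scaled library sizes. On this scale the 9 transcripts ran from an abundant set to a scarce set, with *lsk1* and *spt5* between them. In wild type, *mcs6* stood at 91.3 ± 3.66, *rpb1* at 88.6 ± 18.7 and *rpb2* at 78.8 ± 12.14 RPKM (SD, n = 3 each), and the ranges of neighbors in this order overlapped. These transcripts were above 73.2% to 76.2% of 4890 protein-coding loci. *lsk1* followed at 39.8 ± 2.90 and *spt5* at 24.8 ± 1.92 RPKM (SD, n = 3 each), each apart from its neighbors in every wild-type library. The scarce set was *cdk9* at 13.6 ± 2.59, *fcp1* at 12.2 ± 0.37, *pch1* at 10.9 ± 1.69 and *csk1* at 10.9 ± 0.027 RPKM (SD, n = 3 each), each overlapping its neighbor in range. Only 21.7% to 27.2% of the protein-coding loci lay below these 4 genes. In *siw14*∆ cells *mcs6*, *rpb2* and *rpb1* were again at the top, with 78.0, 72.8 and 67.6 RPKM on average, and *csk1* and *pch1* at the bottom, with 13.9 and 13.2 RPKM.

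**Figure D1:**
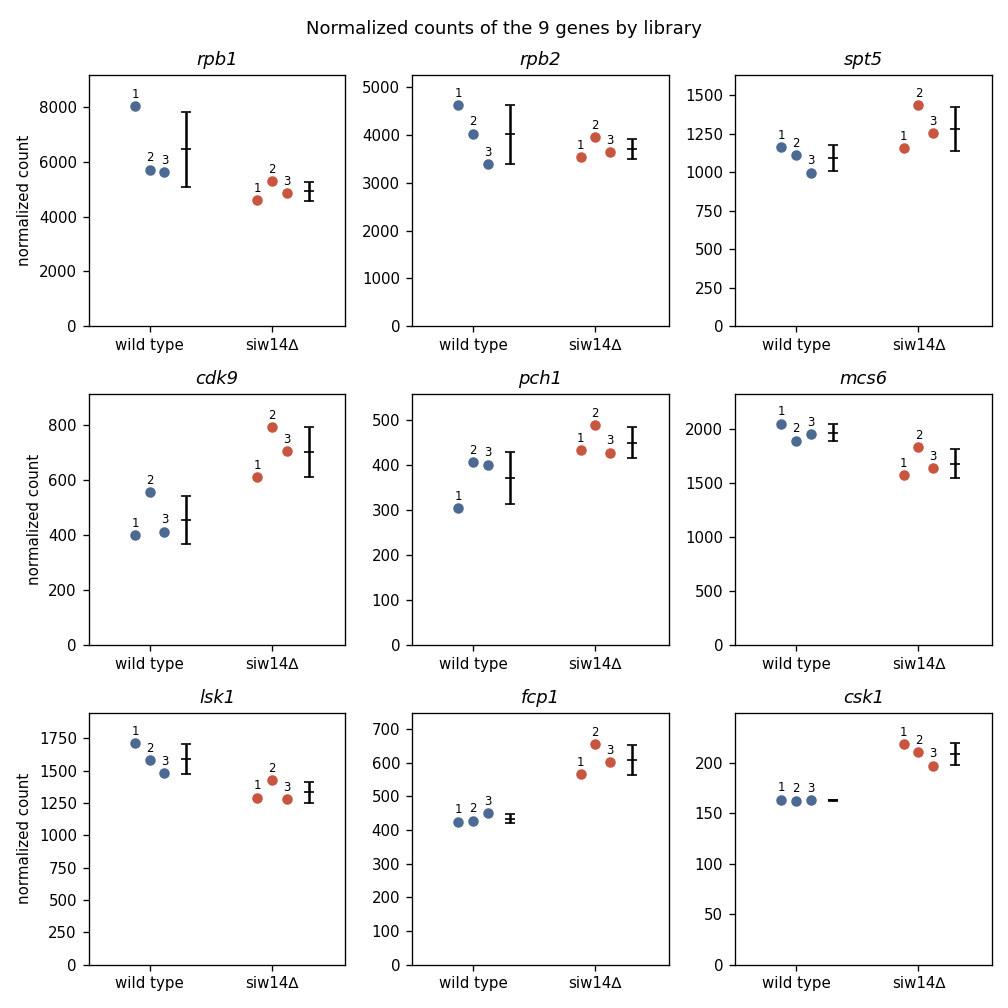
Normalized counts of the 9 genes in each library, with 1 panel per gene and an axis that starts at 0; points are wild-type (blue) and *siw14*∆ (red) libraries with their replicate number, and the bar beside them is the mean with its SD. The *siw14*∆ points lie above every wild-type point for *cdk9*, *pch1*, *fcp1* and *csk1* and below every wild-type point for *rpb1*, *mcs6* and *lsk1*.

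Of the 9 genes, *cdk9* and *fcp1* rose in *siw14*∆ cells, none fell and 7 did not pass the test. These 2 genes of 9 are 22.2%, near the 16.7% of all loci called higher. The median log2 fold change of the 9 genes was 0.23, against 0.01 over all loci, and they ran from −0.39 (*rpb1*) to 0.62 (*cdk9*). At an unadjusted p of 0.05 edgeR had 6 of them, namely *rpb1*, *cdk9*, *mcs6*, *lsk1*, *fcp1* and *csk1*, and it had 41.1% of all loci. DESeq2 called *rpb1* and *lsk1* lower beside the same 2 higher genes, and over all loci it called 1025 higher and 712 lower of 5369 tested. In the main edgeR fit all 9 genes had a 95% interval wholly within a 2-fold change. The log2 upper bound of *cdk9* was 0.96 there. It went beyond 2-fold with library totals only (1.18) and without wild-type replicate 2 (1.08) or *siw14*∆ replicate 1 (1.09) or 3 (1.01). In 4 genes every *siw14*∆ library lay above every wild-type library and in 3 every one lay below, while this held for 27.7% and 19.2% of all loci.

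*cdk9*, which encodes the kinase of Spt5 and of the CTD, was at 399, 556 and 413 normalized counts in wild type and at 610.1, 792 and 706 in *siw14*∆ cells. Replicate 2 was the highest of each genotype, and the lowest *siw14*∆ library was above the highest wild-type library. Its mean of 456 ± 86.8 in wild type rose 1.54-fold to 703 ± 91.3 normalized counts (SD, n = 3 per genotype). On the log2 scale the change was 0.62 (standard error 0.15, 95% interval 0.29 to 0.96, edgeR adjusted p = 0.0262). The call was lost without wild-type replicate 3 (0.59, adjusted p = 0.0535) and without *siw14*∆ replicate 2 (0.53, adjusted p = 0.102) or 3 (0.61, adjusted p = 0.0896), all by edgeR. In the ASM294v3 annotation 115 exon bases of *cdk9* are shared with the meiotic gene *mei4* on the same strand, and a noncoding locus lies opposite 45.2% of its exons.

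*pch1*, the cyclin that pairs with Cdk9, had 304, 406 and 401 normalized counts in wild type and 432, 488 and 427 in *siw14*∆ cells. The genotypes did not overlap, and wild-type replicate 1 was the lowest library. Its log2 fold change of 0.28 did not pass (standard error 0.14, 95% interval −0.03 to 0.59, edgeR adjusted p = 0.159). It was 0.17 without wild-type replicate 1 (adjusted p = 0.261) and 0.45 with library totals only (adjusted p = 0.0952), both by edgeR. Of the *pch1* exons, 88.0% lie opposite the coding locus SPBC32F12.07c in the ASM294v3 annotation. That locus had 1540 to 1739 counts in the 6 libraries and a log2 fold change of −0.21 (edgeR adjusted p = 0.101). By the study's methods the libraries were strand-specific. The sources used here name no strand setting for the counting, so reads of this pair may be shared or dropped.

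*fcp1*, the CTD phosphatase gene, was at 425, 427 and 449 normalized counts in wild type and at 566, 655 and 601 in *siw14*∆ cells. The wild-type libraries were close to each other and all lay below the *siw14*∆ libraries. Its mean of 434 ± 13.2 in wild type rose 1.40-fold to 607 ± 44.8 normalized counts (SD, n = 3 per genotype). The log2 fold change was 0.49 (standard error 0.11, 95% interval 0.24 to 0.73, edgeR adjusted p = 0.0243). Without *siw14*∆ replicate 2 or 3 the call was lost at 0.43 and 0.49 (edgeR adjusted p = 0.101 and 0.0895), and in those fits edgeR called no locus higher and 1 lower among all loci, with 1734 and 1756 loci at an unadjusted p of 0.05.

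*rpb1* and *rpb2*, for the catalytic core of Pol2, did not pass the test. *rpb1* was at 8030.4, 5719 and 5625 normalized counts in wild type and at 4603, 5305 and 4868 in *siw14*∆ cells. Wild-type replicate 1 was far above the rest, and the other wild-type libraries also lay above all *siw14*∆ libraries. The log2 fold change of −0.39 (standard error 0.14, 95% interval −0.69 to −0.09, edgeR adjusted p = 0.0608) was −0.19 without wild-type replicate 1 (adjusted p = 0.124) and −0.48 without wild-type replicate 2 (adjusted p = 0.0246). It passed by DESeq2, at −0.42 (adjusted p = 0.0153), and with DESeq2's size factors in edgeR, at −0.42 (adjusted p = 0.0482). In edgeR it was −0.20 with library totals only (adjusted p = 0.164) and −0.21 once a trend with GC content was removed (adjusted p = 0.0825).

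*rpb2* had 4628, 4027 and 3391 normalized counts in wild type and 3539, 3950.5 and 3636 in *siw14*∆ cells. The groups overlapped, since wild-type replicate 3 was the lowest of all 6 libraries and wild-type replicate 1 the highest. Its log2 fold change was −0.11 (standard error 0.12, 95% interval −0.37 to 0.14, edgeR adjusted p = 0.475), and without wild-type replicate 1 it was 0.02.

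*spt5*, the large subunit of the elongation factor DSIF and the other substrate of Cdk9, had 1164, 1113 and 999 normalized counts in wild type and 1156, 1437 and 1254 in *siw14*∆ cells. The groups overlapped, because *siw14*∆ replicate 1 lay just below wild-type replicate 1. The log2 fold change was 0.23 (standard error 0.11, 95% interval −0.00 to 0.47, edgeR adjusted p = 0.124). It passed with library totals only (0.41, adjusted p = 0.0209) and once a trend with GC content was removed (0.39, adjusted p = 0.0207), and it was 0.15 without *siw14*∆ replicate 2 (adjusted p = 0.397), all by edgeR. The coding gene *rqt4* lies opposite 23.8% of the *spt5* exons and had a log2 fold change of 0.30 (adjusted p = 0.184).

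The other 3 kinase genes did not pass either. *mcs6* had 2049, 1893 and 1953 normalized counts in wild type and 1573, 1830.0 and 1638 in *siw14*∆ cells, a log2 fold change of −0.23 (standard error 0.09, 95% interval −0.42 to −0.03, edgeR adjusted p = 0.0835). *lsk1* had 1714, 1579.8 and 1483 normalized counts in wild type and 1292, 1426 and 1279 in *siw14*∆ cells, a log2 fold change of −0.26 (standard error 0.09, 95% interval −0.46 to −0.06, edgeR adjusted p = 0.0630). In both genes all *siw14*∆ libraries lay below all wild-type libraries, by a gap smaller than the SD of either genotype. DESeq2 put *lsk1* at −0.29 (adjusted p = 0.0436), and edgeR gave adjusted p = 0.0497 with a filter of 10 counts in all libraries. With library totals only, edgeR put *lsk1* at −0.08 (adjusted p = 0.526) and *mcs6* at −0.05 (adjusted p = 0.702). With the GC trend removed, *lsk1* passed at −0.33 (adjusted p = 0.0232) and *mcs6* was at −0.10 (adjusted p = 0.342).

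*csk1* had the smallest counts of the 9 genes. It stood at 163 normalized counts in every wild-type library (149, 158 and 156 counts before scaling) and at 219, 210.4 and 197 in *siw14*∆ cells, with no overlap. The log2 fold change was 0.36 (standard error 0.14, 95% interval 0.05 to 0.67, edgeR adjusted p = 0.0832), and with library totals only it passed (0.54, adjusted p = 0.0379). Its exons lie wholly opposite a noncoding locus of the ASM294v3 annotation that the count matrix does not list.

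**Figure D2:**
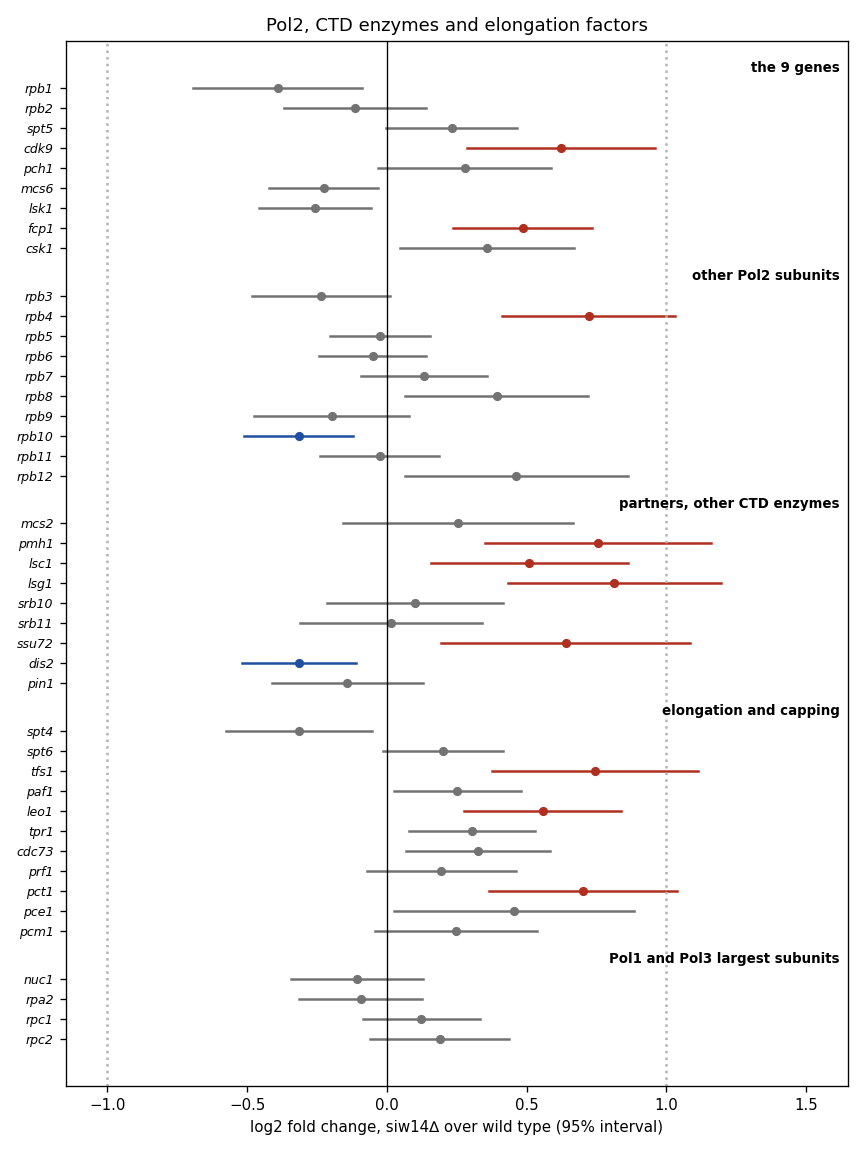
Log2 fold change (*siw14*∆ over wild type) with its 95% interval from edgeR (3 libraries against 3) for the 9 genes and 4 lists of related genes; red marks genes called higher, blue genes called lower, gray genes that did not pass, and the dotted lines a 2-fold change. All 9 intervals stay within the dotted lines, and the *cdk9* and *fcp1* points are at 0.62 and 0.49.

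Over all loci the fold changes differed with abundance. When the 5774 loci were split into 4 classes of near equal size by mean normalized count, the median log2 fold change was 0.24, 0.34, −0.03 and −0.20 from class 1, the lowest, to class 4. *cdk9*, *pch1*, *fcp1* and *csk1* belong to class 2 (184 to 609 normalized counts), where 38.5% of the loci were called higher, and 2 of these 4 genes were. *rpb1*, *rpb2* and *mcs6* belong to class 4, where 1.66% were called higher and 13.9% lower, and none of the 3 was called. *spt5* and *lsk1* lie in class 3, with 12.8% higher and 4.02% lower, and neither passed. With a loess trend of each library over abundance taken out, edgeR called none of the 9 genes and 1 of 5774 loci, with 1599 loci at an unadjusted p of 0.05. *cdk9* was then at 0.42 (adjusted p = 0.0986), *spt5* at 0.26 (adjusted p = 0.134) and *fcp1* at 0.25 (adjusted p = 0.155). *lsk1* was at −0.19 (adjusted p = 0.162), *rpb1* at −0.17 (adjusted p = 0.295) and *mcs6* at −0.13 (adjusted p = 0.324). *pch1* and *csk1*, at 0.28 and 0.36 before, were at −0.02 and −0.03 (adjusted p = 0.918 and 0.889). Whether the trend belongs to the libraries or to the genotype cannot be told apart.

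**Figure D3:**
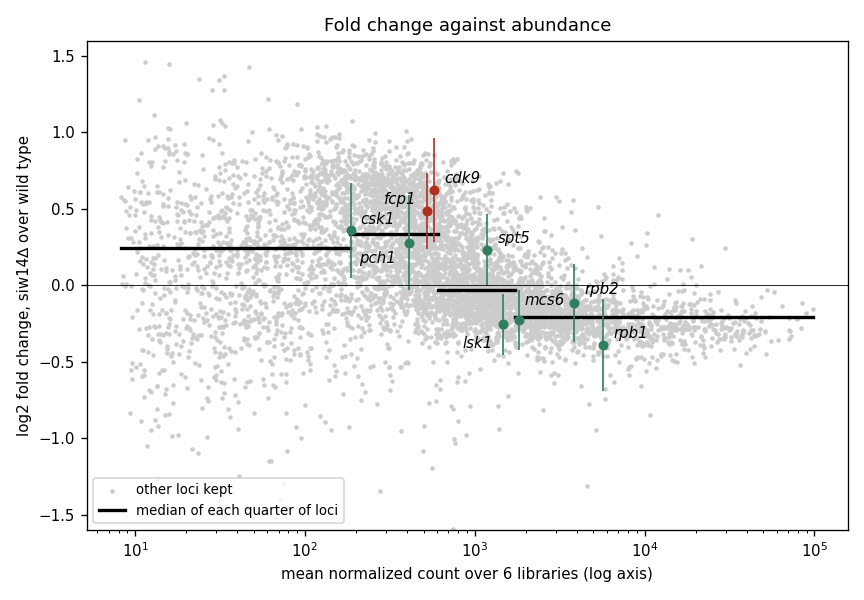
Log2 fold change (*siw14*∆ over wild type) against the mean normalized count of the 6 libraries (log axis); gray points are the loci kept, of which 5 lie outside the plotted range, colored points are the 9 genes with 95% intervals (red: called), and black lines are the medians of the 4 classes of loci. The scarce genes *cdk9*, *fcp1*, *pch1* and *csk1* sit with the loci above 0 and *rpb1*, *rpb2* and *mcs6* with the abundant loci below 0.

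Ratios within a library do not depend on how libraries are scaled, so 6 pairs of related genes were compared by their counts per kilobase. The ratio of *fcp1* to *rpb1*, a phosphatase and its substrate, was 0.108, 0.153 and 0.163 in wild type and 0.251, 0.252 and 0.252 in *siw14*∆ cells. The SD of the log2 ratio was 0.0035 in *siw14*∆ cells and 0.32 in wild type, where replicate 1 was the lowest. An SD from 3 libraries is a rough estimate. At 615, 719 and 594 *fcp1* counts, the *siw14*∆ value lies below the noise of counting. The difference between these SDs was not tested. The mean log2 ratio was higher in *siw14*∆ by 0.86, and by 0.41 with the trend over abundance taken out.

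The log2 ratio of *lsk1* to *cdk9*, both CTD kinases of elongation, was 1.85, 1.25 and 1.59 in wild type and 0.83, 0.60 and 0.60 in *siw14*∆ cells, a mean difference of −0.89 (−0.62 with the trend out). Per length, *lsk1* RNA thus exceeded *cdk9* RNA in all 6 libraries. The ratio of *spt5* to *rpb1*, both phosphorylated by Cdk9, was 0.240, 0.322 and 0.294 in wild type and 0.415, 0.448 and 0.426 in *siw14*∆ cells (0.60, and 0.41 with the trend out). The ratio of *csk1* to *mcs6*, the activator and its kinase, was 0.115, 0.124 and 0.120 in wild type and 0.200, 0.165 and 0.173 in *siw14*∆ cells. Its mean log2 difference of 0.58 was 0.09 with the trend out, where the groups had an exact p = 0.5.

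The last pairs are partners in a complex. The ratio of *pch1* to *cdk9* was 0.753, 0.722 and 0.959 in wild type and 0.701, 0.609 and 0.598 in *siw14*∆ cells, a mean log2 difference of −0.34 (−0.44 with the trend out and −0.22 without wild-type replicate 3). The ratio of *rpb2* to *rpb1* was 0.824, 1.01 and 0.862 in wild type and 1.10, 1.06 and 1.07 in *siw14*∆ cells, a difference of 0.27 (0.24 with the trend out). In all 6 pairs the genotypes did not overlap, against 40.4% of all pairs of the 5774 loci. The 6 ratios are not independent, since several share *rpb1* or *cdk9* as the denominator. For each, the exact two-sided permutation test gave p = 0.1 (0.1 also after adjustment over the 6 ratios), the smallest that 3 libraries against 3 allow.

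**Figure D4:**
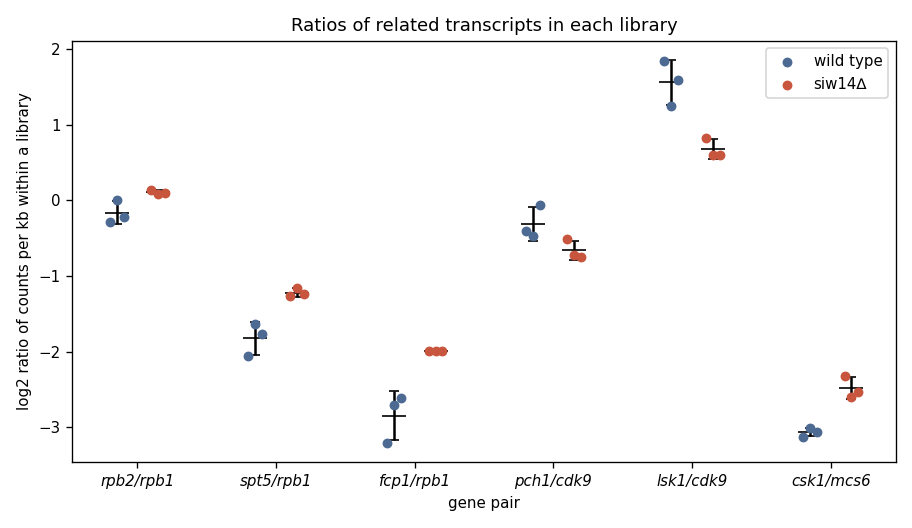
Log2 ratio of counts per kilobase of exon for 6 gene pairs in each library; points are wild-type (blue) and *siw14*∆ (red) libraries, bars the mean with its SD (n = 3). The genotypes are apart in all 6 pairs, from 0.27 for *rpb2* to *rpb1* to 0.89 in size for *lsk1* to *cdk9*.

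*siw14*∆ replicate 2 was the highest library of its genotype at 8 of the 9 genes, all but *csk1*, against 45.8% of all loci. Wild-type replicate 1 was the highest wild-type library at 6 genes (*rpb1*, *rpb2*, *spt5*, *mcs6*, *lsk1* and, by less than 1 count, *csk1*) and the lowest at the other 3, against 36.6% and 41.1% of all loci.

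The other genes of the pathway were counted from 4 lists of 34 genes, all kept by the filter. Of 10 other Pol2 subunits, *rpb4* rose, *rpb10* fell and 8 did not pass, with a median log2 fold change of −0.02. Among all loci 16.7% were called higher and 4.99% lower. With 10 genes, 1 call in each direction is too few to set this list apart from all loci. *rpb4*, for a subunit of the Pol2 stalk, had 259, 328 and 363 normalized counts in wild type and 531, 498 and 538 in *siw14*∆ cells (0.72, standard error 0.14, edgeR adjusted p = 0.0235). *rpb10*, for a subunit shared with Pol1 and Pol3, had 3712, 3288 and 3822 and then 2855, 2947 and 2898 (−0.32, standard error 0.09, adjusted p = 0.0348 by edgeR).

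Of 9 partners of the CTD kinases and other CTD enzymes, 4 rose, 1 fell and 4 did not pass, with a median of 0.26. These are 44.4% higher and 11.1% lower, against 16.7% and 4.99% of all loci. Of the loci in abundance classes 1 and 2, 13.8% and 38.5% were called higher. *lsg1*, for the third subunit of the Lsk1 kinase, had 89.96, 117 and 112 normalized counts in wild type and 166, 196 and 200.4 in *siw14*∆ cells (0.81, adjusted p = 0.0235 by edgeR). *lsc1*, the cyclin of Lsk1, had a log2 fold change of 0.51 (adjusted p = 0.0444), and *pmh1*, of the Mcs6 kinase, one of 0.75 (adjusted p = 0.0258). Each of these 3 partners rose while its kinase gene did not pass. The partners lie far lower in abundance, however, at 106 to 252 normalized counts in wild type. *mcs2*, the cyclin of TFIIH, was named after its value was seen and did not pass (0.26, edgeR adjusted p = 0.322). For *cdk9* and *pch1* the kinase gene was called and its partner was not. *dis2*, for a PP1 phosphatase of the cleavage and polyadenylation machinery, had a mean of 11090.0 ± 689 normalized counts in wild type and fell to 8922 ± 107 (SD, n = 3 per genotype; −0.31, edgeR adjusted p = 0.0386). With library totals only, *rpb10* and *dis2* were both at −0.14 and no longer passed (edgeR adjusted p = 0.267 and 0.245). *ssu72*, a CTD phosphatase named after its value was seen, rose by 0.64 (edgeR adjusted p = 0.0457).

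Of 11 elongation and capping factors, 3 rose (27.3%, against 16.7% of all loci), none fell and 8 did not pass, with a median of 0.30. At an unadjusted p of 0.05 edgeR had 8 of the 11, and it had 41.1% of all loci. *tfs1*, for the elongation factor TFIIS, had 368, 629 and 536 normalized counts in wild type and 817, 900.0 and 853 in *siw14*∆ cells (0.74, adjusted p = 0.0235 by edgeR). *leo1*, of the Paf1 complex, had a log2 fold change of 0.56 (adjusted p = 0.0241), and *pct1*, the RNA triphosphatase of capping, one of 0.70 (adjusted p = 0.0235). *spt4*, the partner of Spt5 in DSIF, was chosen after its value was seen; it did not pass, at −0.31 (edgeR adjusted p = 0.0747), and DESeq2 called it lower (−0.35, adjusted p = 0.0394).

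The largest and second largest subunits of the other RNA polymerases served for comparison. *nuc1* and *rpa2* of Pol1 had log2 fold changes of −0.11 and −0.09, which turned to 0.08 and 0.09 with library totals only, and *rpc1* and *rpc2* of Pol3 had 0.12 and 0.19. None of the 4 passed in edgeR (adjusted p = 0.227 to 0.498, none at an unadjusted p of 0.05), and none was called by DESeq2, while *rpc1* passed with library totals only (0.30, adjusted p = 0.0253). In all 4 the genotypes overlapped. Across the 34 genes, 8 rose (23.5%) and 2 fell (5.9%), against 16.7% and 4.99% of all loci. With the trend over abundance taken out or without *siw14*∆ replicate 2 or 3, 0 of the 10 calls were kept. Without wild-type replicate 3 there were 6 calls, while edgeR called 640 higher and 44 lower of all 5799 loci tested. Without *siw14*∆ replicate 1 there were 5, with 378 higher and 1 lower of all 5813 loci tested. The exons of *lsg1* and *leo1* lie wholly opposite another coding gene in the ASM294v3 annotation, and those of *lsc1* by 76.3%.

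**Figure D5:**
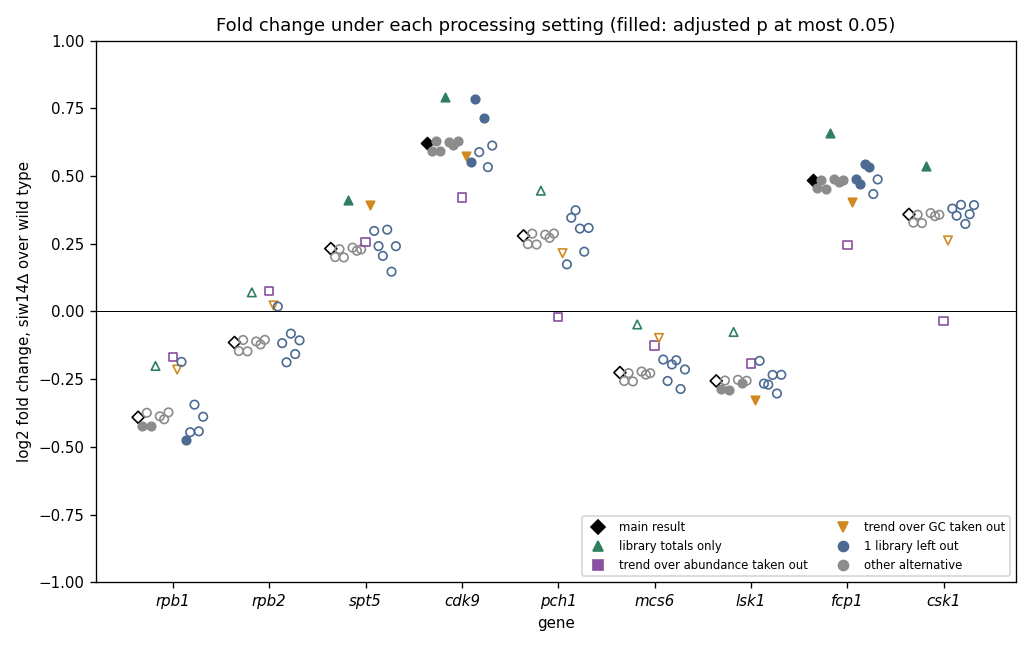
Log2 fold change of the 9 genes under each processing setting, with filled symbols where the adjusted p was at most 0.05; diamonds are the main result, triangles up library totals only, squares and triangles down a trend over abundance or GC content taken out, blue circles fits without 1 library and gray circles the other alternatives. *cdk9*, *fcp1* and *spt5* stay above 0 in every setting shown (0.42 to 0.79, 0.25 to 0.66 and 0.15 to 0.41), and *rpb1*, *mcs6* and *lsk1* below 0.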

How the data were processed

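Per the labels and the study's methods, the authors used HISAT2 2.1.0 for mapping of poly(A)+ RNA reads (ASM294v2), SAMtools for file conversion and HTSeq 0.10.0 for gene counts. The deposited matrix holds raw counts, 1 column per library. The unnamed lines below the loci, filled for the *siw14*∆ libraries (31.6% to 35.8% of their counts), were left out. A table of the authors' own DESeq2 comparison (fold changes, p-values, strain means) was not used.

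Counts were filtered with filterByExpr, scaled by TMM and tested in R 4.3.3 with edgeR 4.0.16 (glmQLFit, then glmQLFTest). The fit had a common dispersion of 0.0151. The standard error is the fold change over the root of F. Within-library ratios used log2 of (count + 0.5) per kilobase and an exact two-sided permutation test (SciPy 1.17.1). Exon lengths, GC content, overlaps and coding sequences come from RefSeq build ASM294v3, to which 6836 IDs matched. Since that build differs from theirs, coordinates are omitted. The alternatives were DESeq2 1.42.0, limma-voom (limma 3.58.1), DESeq2's size factors or library totals only, filters of 1 count in any or 10 counts in all libraries, the replicate number as a block, loess trends (span 0.3) and each library left out.

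Genes and lists were chosen with earlier results of these data known. All 9 genes are named, and of each list up to 4 called genes with the smallest p, or all of a list of 4. *mcs2*, *ssu72* and *spt4* were added after their values were seen.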

Additional observations from a re-analysis of the deposited data

How the results depend on the processing

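Each log2 fold change of the 9 genes was recomputed under 15 alternatives. Of these values, 112 kept their direction and their side of the threshold, 10 newly passed, 7 no longer passed and 6 changed sign. The sign changed for *rpb2* with library totals only (0.0704), the trend over abundance (0.0751) or over GC content (0.0221) taken out and without wild-type replicate 1 (0.0181; from −0.188 to 0.0181 over the fits without 1 library), and for *pch1* (−0.0214) and *csk1* (−0.0345) with the trend over abundance taken out. None of these 6 values passed. The number of the 9 genes called was 4 by DESeq2, with DESeq2's size factors, with library totals only and with the trend over GC content taken out, 0 with the trend over abundance taken out, and 0 to 3 when 1 library was left out (0 without *siw14*∆ replicate 2 or 3). Library totals only moved the median of all loci to 0.18 and the share of higher among all calls from 77.0% to 97.8%, against 64.6% with DESeq2's size factors, 59.0% by DESeq2 and 49.5% with the trend over GC content taken out. Over all loci 964 were called higher and 288 lower, against 1025 and 712 by DESeq2, 903 and 495 with DESeq2's size factors, 1368 and 31 with library totals only, 868 and 884 with the trend over GC content and 0 and 1 with the trend over abundance taken out. Leaving out 1 library gave 0 to 1204 higher and 1 to 717 lower calls. Of the 34 related genes, 0 were called with the trend over abundance taken out and 0 to 14 without 1 library. The 6 ratios kept their direction with a pseudocount of 10, with the trend taken out and without any 1 library. With the replicate number as a block, 2 of the 9 and 9 of the 34 genes were called, with 1007 higher and 156 lower over all loci. Deviations of same-numbered libraries from the mean of their genotype correlated at −0.26, 0.18 and −0.16. With means of only 3 libraries, these values cannot tell whether the numbers pair the samples. The cause of these changes was not tested.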
